A study of Mus musculus with 18 samples.

Results

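The 10 genes described here, *Fkbp5*, *Tsc22d3*, *Zbtb16*, *Dusp1*, *Sgk1*, *Mt1*, *Mt2*, *Hsd11b1*, *Errfi1* and *Cdo1*, are known as genes that glucocorticoids induce, and they were picked by name from the 54532 genes of the count table. They and the gene lists below were chosen with earlier results of these data known. Shares of all tested genes printed beside their counts are therefore a description and no test of the set. They served as a readout of dexamethasone, the synthetic glucocorticoid in the adipogenic mix DMII, in WT and FOXS1 KO cells. All 10 passed the filter on low counts, *Zbtb16* only through the stimulated libraries of 1 clone. The cells were 10T1/2, the line that the labels call CH310T1/2, a mouse mesenchymal fibroblast line that can be turned toward adipocytes. RNA was sequenced from WT cells and from FOXS1 KO clones 1 and 2, each line grown past confluence and taken either uninduced (labeled Control) or after stimulation, with 3 libraries in each of 6 groups. Stimulated cells had 12 h of TGF-β1 at 1 nM, followed by 48 h of DMII, which joins dexamethasone with 3-isobutyl-1-methylxanthine, a phosphodiesterase inhibitor that raises cAMP, insulin, and indomethacin. Each KO line was made with CRISPR-Cas9 and grew from a single cell, so each is 1 clone, and the effect of the knockout cannot be told apart from other differences between clones. No library received a single agent. The methods also give serum starvation before TGF-β1 and a change of medium with DMII, so dexamethasone, the other agents and the medium cannot be told apart in any response below.

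Glucocorticoids enter the cell and bind the glucocorticoid receptor (*Nr3c1*), which waits in the cytoplasm in a complex with HSP90 and its co-chaperones. The bound receptor moves to the nucleus, pairs with a second receptor on palindromic DNA elements, and raises transcription of nearby genes. Several of these targets feed back on the pathway, and in preadipocytes dexamethasone is a standard part of the mix that starts adipogenesis. In tissues, HSD11B1 regenerates active glucocorticoid from its inactive form, and HSD11B2 inactivates it.

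After TGF-β1 + DMII, *Fkbp5*, *Sgk1*, *Mt1* and *Mt2* rose in WT cells and in both FOXS1 KO clones. The rise of *Fkbp5* was 8.47-fold in WT cells, 59.9-fold in clone 1 and 52.8-fold in clone 2. *Tsc22d3* and *Cdo1* fell in WT cells and rose in both clones, and *Errfi1* rose past the threshold in the clones. *Hsd11b1* changed by less than the fold threshold with stimulation and was 15.5-fold and 13.3-fold higher in uninduced clones 1 and 2 than in uninduced WT cells. The response was larger in both clones than in WT cells for 6 of the 10 genes, by edgeR's quasi-likelihood test of the difference in response, and for none was it called smaller, where 5.34% of all tested genes had a larger response in clone 1 and 4.89% in clone 2. Since these are bulk libraries, fewer responding cells and less RNA per cell cannot be told apart.

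Levels are CPM, read counts scaled to a common library size with TMM factors, given as mean ± SD over 3 libraries. A DEG had a Benjamini-Hochberg adjusted p below 0.05 over all 14317 genes tested and a log2 fold change beyond 1 in size. Errors of log2 fold changes are standard errors. Library totals ran from 15576685 to 42005596 counts, the highest being replicate 1 of uninduced clone 2. *Foxs1* itself had 1.81, 3.25 and 1.64 CPM in uninduced WT libraries and 3.13, 2.55 and 1.85 in stimulated ones. It had 26.7, 27.1 and 23.4 in uninduced and 53.6, 52.9 and 56.8 in stimulated clone 1, and 21.1, 22.9 and 23.9 in uninduced and 38.8, 38.0 and 42.8 in stimulated clone 2. The transcript was thus higher in the libraries labeled KO, in which gene totals do not show the edit, and "WT" and "clone" below mean the libraries so labeled. The paper reports that sequencing of genomic DNA showed the disrupted locus, and that western blots showed loss of FOXS1 protein in both clones. Summed over 7 fibroblast markers, levels were 33898 to 38745 CPM in uninduced and 60219 to 79233 CPM in stimulated libraries, mostly from *Col1a1*, *Col1a2* and *Col3a1*. Single markers went other ways. *Vim* went from 7258 to 2028 CPM in WT, 4035 to 1943 in clone 1 and 4831 to 1752 in clone 2. *Pdgfra* had 517 CPM in uninduced WT against 171 and 216 in uninduced clones 1 and 2, and *Thy1* averaged 0.616 and 0.342 CPM in uninduced and stimulated clone 2 against 59.6 and 49.0 in WT. The 2 leukocyte, 2 endothelial and 2 epithelial markers summed to at most 0.134, 1.63 and 3.23 CPM in any library. The 4 adipocyte markers were at 0 in all stimulated WT libraries. They summed to 6.29 to 9.96 CPM in stimulated clone 1 and 0.504 to 1.18 CPM in stimulated clone 2, mostly *Plin1*. In uninduced libraries the sums were 0 to 1.18 CPM in WT, 0.259 to 0.410 in clone 1 and 0.93 to 1.10 in clone 2. *Adipoq* went from 42 counts to 0 in WT, from 11 to 15 in clone 1 and from 82 to 6 in clone 2. *Lep* was at 0 in every library. Their part in the results was not tested. The labels do not say that the libraries of a group came from separate cultures, so p-values measure the spread between these libraries, which may be technical.

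Promoters were read from RefSeq (GRCm38.p6, 250 bases before to 50 after each start), which held 16 promoters for 8 of the 10 genes and none for *Zbtb16* and *Cdo1*. They were searched on both strands for letters that the glucocorticoid receptor, the metal factor MTF1 and the cAMP factor CREB are known to bind. The full glucocorticoid response element, GNACA and TGTNC with 3 bases of any kind between them, stood in 0.475% of all 32851 promoters. By gene the share was 0.5365% of 27025. It stood in the 1 promoter of *Mt1* and in 1 of the 6 promoters of *Sgk1*. That *Sgk1* promoter lies inside the annotated gene, and gene counts do not show which start was used. Its half-site TGTTCT, which the full element can overlap, stood in 19.0% of promoters and 21.3% of genes. Some promoters of *Sgk1* and *Tsc22d3* were among them. A gene was counted where any of its promoters matched. The metal response element in its form TGCACNC occurred in 3 of the 8 genes, beside 14.2% of all genes (12.6% of promoters). In its form TGCGCNC it occurred in 4 of the 8, beside 17.0% of all genes (15.4% of promoters). *Mt1* and *Mt2* each held the element more than once. The cAMP response element TGACGTCA occurred in *Dusp1* and *Errfi1*, beside 2.03% of all genes (1.79% of promoters). The windows that carry these matches are shown 5′ to 3′ in the direction of transcription, with full elements of the kind named for each, on either strand, in capitals, because they set the promoters of genes that rose in both clones (*Sgk1*, *Mt1*, *Mt2*, *Errfi1*) beside that of one that was a DEG in no response (*Dusp1*). In WT cells *Errfi1* was no DEG either. The half-sites of *Sgk1* at 189 and 180 bases before the start overlap its full element and were not marked. A match describes the letters only.
Sgk1 (chr10:21993672-21993744, plus strand, glucocorticoid response element 188 to 176 bases before the start): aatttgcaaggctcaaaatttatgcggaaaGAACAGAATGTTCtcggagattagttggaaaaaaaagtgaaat
Mt1 (chr8:94178985-94179081, plus strand, glucocorticoid response element 94 to 82 bases before the start, then a metal response element): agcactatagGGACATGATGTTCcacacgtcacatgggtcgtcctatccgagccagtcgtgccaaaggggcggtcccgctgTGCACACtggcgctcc
Mt2 (chr8:94172385-94172584, plus strand, metal response elements): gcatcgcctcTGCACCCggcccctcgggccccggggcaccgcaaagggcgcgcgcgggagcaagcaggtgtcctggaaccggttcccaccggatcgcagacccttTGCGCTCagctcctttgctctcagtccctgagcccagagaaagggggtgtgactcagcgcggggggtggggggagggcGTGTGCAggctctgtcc
Errfi1 (chr4:150854989-150855056, plus strand, cAMP response element): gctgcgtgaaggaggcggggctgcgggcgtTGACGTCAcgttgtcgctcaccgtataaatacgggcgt
Dusp1 (chr17:26508578-26508645, minus strand, cAMP response element): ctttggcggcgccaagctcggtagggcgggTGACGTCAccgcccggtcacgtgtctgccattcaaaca

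**Figure D1:**
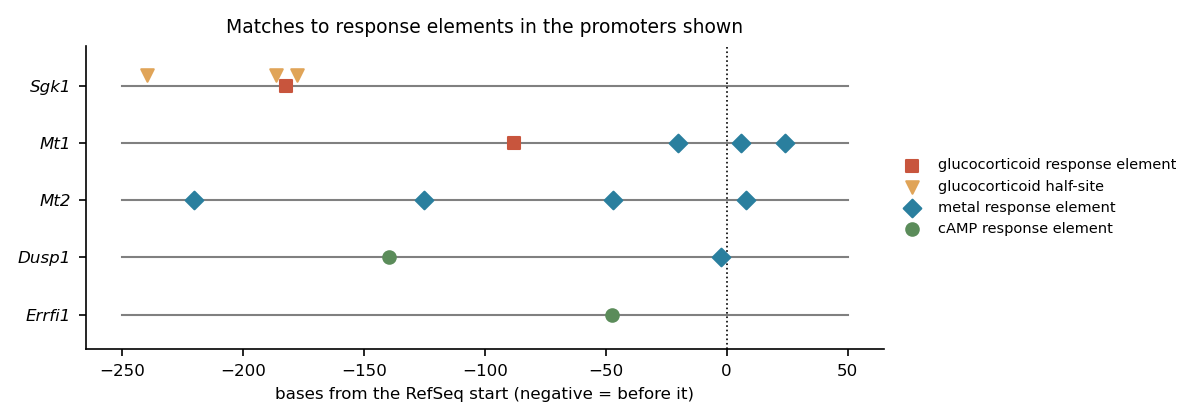
Each line is 1 RefSeq promoter, with distance from the start in bases on the horizontal axis and a symbol at the middle of each match. The squares mark the full glucocorticoid response element, beginning 188 bases before the start in *Sgk1* and 94 in *Mt1*, and *Mt2* shows only metal response elements.

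No full element was found in the promoters of *Fkbp5*, *Tsc22d3*, *Dusp1*, *Mt2*, *Hsd11b1* and *Errfi1*, which says only that these letters are not in these windows. The elements of a gene can lie far from its start, and regions beyond the promoter tables were not analysed here.

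**Figure D2:**
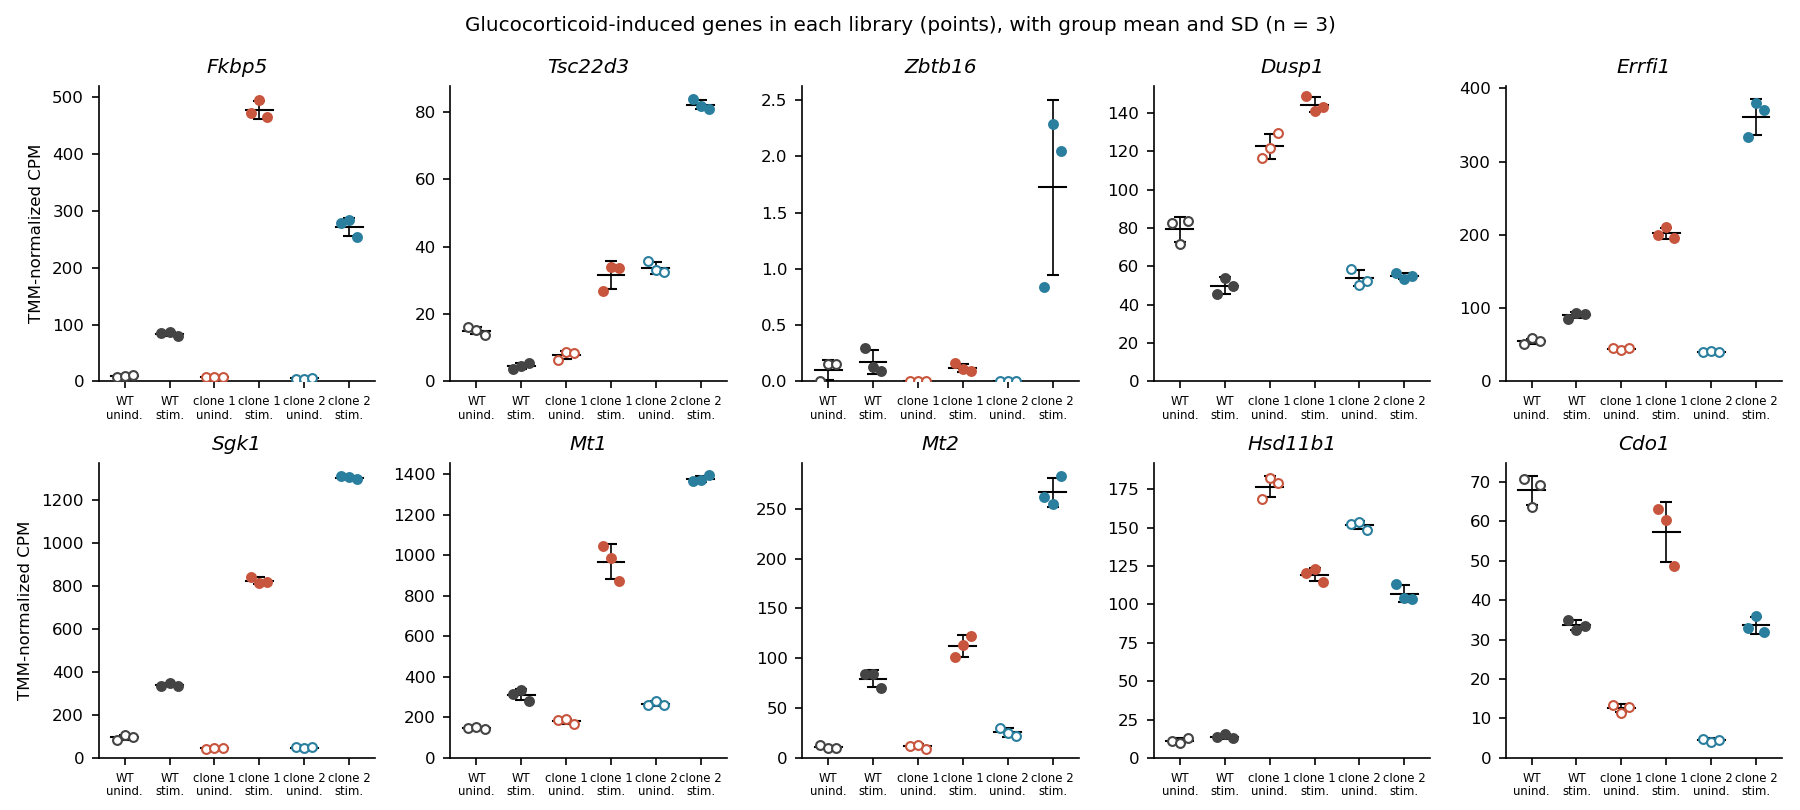
Levels of the 10 genes in each library (TMM-normalized CPM, linear axes from 0, 1 scale per gene), open circles uninduced and filled circles stimulated, with the group mean and SD as a line and bars. The stimulated clones stand above stimulated WT cells for *Fkbp5*, *Sgk1*, *Mt1* and *Errfi1*, while *Tsc22d3* and *Cdo1* go down in WT cells and up in both clones.

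*Fkbp5* (ENSMUSG00000024222, chr17:28399094-28517527, minus strand) encodes FKBP51, an HSP90 co-chaperone that lowers the receptor's affinity for hormone and so closes a feedback loop. Uninduced levels were 7.22, 9.75 and 11.9 CPM in WT, 7.84, 8.47 and 7.61 in clone 1 and 5.09, 4.65 and 5.91 in clone 2. Stimulated levels were 84.4, 86.6 and 79.2 CPM in WT, 472, 496 and 466 in clone 1 and 279, 284 and 254 in clone 2. Every stimulated library lay above every uninduced one, and the stimulated groups stood apart from each other in the order clone 1, clone 2, WT. Of the uninduced groups, WT and clone 1 overlapped, and clone 2 was below both. The log2 response was 3.08 ± 0.10 in WT (adjusted p = 1.90e-18), 5.90 ± 0.10 in clone 1 (adjusted p = 1.49e-23) and 5.72 ± 0.10 in clone 2 (adjusted p = 2.97e-23). Relative to WT the response was larger by 2.82 ± 0.15 in clone 1 (adjusted p = 1.37e-13) and by 2.64 ± 0.15 in clone 2 (adjusted p = 7.88e-13). In stimulated cells *Fkbp5* was 5.73-fold higher in clone 1 and 3.27-fold higher in clone 2 than in WT. Among uninduced cells its log2 difference from WT was -0.30 in clone 1 and -0.93 in clone 2, neither a DEG, and the latter reached -1.08 without replicate 1 of uninduced WT.

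*Tsc22d3* (ENSMUSG00000031431, chrX:140539528-140600659, minus strand) encodes GILZ, a leucine zipper protein that carries part of the anti-inflammatory action of glucocorticoids and can restrain adipogenesis. Its WT libraries had 16.1, 15.3 and 13.9 CPM uninduced and 3.81, 4.53 and 5.59 CPM stimulated. Clone 1 had 6.35, 8.64 and 8.49 CPM uninduced and 26.8, 34.0 and 33.8 stimulated, and clone 2 had 35.8, 33.1 and 32.3 uninduced and 83.6, 81.9 and 80.8 stimulated. The WT groups and the groups of each clone separated in opposite directions, with stimulated WT lowest and stimulated clone 2 highest of the 6 groups. Uninduced clone 2 and stimulated clone 1 overlapped and were otherwise clear of their neighbors. WT cells fell by 1.69 on the log2 scale (SE 0.13, adjusted p = 2.41e-12). Clone 1 rose by 2.01 ± 0.12 (adjusted p = 4.34e-15) and clone 2 by 1.28 ± 0.10 (adjusted p = 3.61e-12). The difference in response was 3.70 ± 0.18 for clone 1 (adjusted p = 1.30e-16) and 2.97 ± 0.16 for clone 2 (adjusted p = 7.26e-15). Stimulated clones 1 and 2 held 6.78-fold and 17.6-fold the WT level. The uninduced clones went opposite ways, at -0.94 in clone 1, short of a DEG, and 1.17 in clone 2, a DEG. The clone 1 value was past the fold threshold without replicate 2 (-1.02) or replicate 3 of uninduced clone 1.

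*Zbtb16* (ENSMUSG00000066687, chr9:48654297-48836222, minus strand) encodes PLZF, a zinc finger transcriptional repressor that is a sensitive glucocorticoid target in many cell types. Here it was barely detected. Its counts were 0, 3 and 4 in uninduced WT libraries, 6, 3 and 2 in stimulated WT, and 3, 3 and 2 in stimulated clone 1. Stimulated clone 2 had 15, 35 and 34 counts (0.840, 2.29 and 2.04 CPM), and all uninduced libraries of both clones had 0. Stimulated clone 2 lay above every other library, while the stimulated WT, stimulated clone 1 and uninduced WT groups overlapped. With 3 counts over a group as the floor, stimulated clone 2 was at least 47.6-fold higher than uninduced clone 2. By counts it was 10.1 times stimulated WT (95% exact binomial interval 5.36 to 21.0) and 14.3 times stimulated clone 1 (6.94 to 34.2). Stimulated WT was 1.49 times uninduced WT (0.528 to 4.54), which includes no change. These intervals and the floor cover counting error only. Because *Zbtb16* passed the filter only through stimulated clone 2, where it was high, its comparisons with that group are descriptions, and no p is given for them. The response of clone 1 was not called different from that of WT (adjusted p = 0.159). The clone 1 response was called on 8 counts against 0, at least 2.26-fold (adjusted p = 0.0359). Its adjusted p was 0.0776, 0.0760 or 0.0770 without replicate 1, 2 or 3 of uninduced clone 1, and 0.0673 or 0.0521 without replicate 1 or 2 of stimulated clone 1. The uninduced clones were called lower than WT on 0 counts against 7, at adjusted p = 0.0444 for clone 1 and 0.0234 for clone 2. Without replicate 2 or 3 of uninduced WT these became 0.0847 or 0.105 for clone 1 and 0.0530 or 0.0695 for clone 2. Leaving out replicate 1, 2 or 3 of uninduced clone 1 gave 0.0920, 0.0896 or 0.0902, and leaving out replicate 1 of uninduced clone 2 gave 0.0883.

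*Sgk1* (ENSMUSG00000019970, chr10:21882184-21999903, plus strand), a kinase that acts on ion transport and cell survival downstream of insulin and phosphoinositide signals, was among the most abundant of the 10 genes. Its uninduced levels were 84.0, 108 and 96.1 CPM in WT, 42.4, 45.1 and 46.0 in clone 1 and 51.4, 44.4 and 48.8 in clone 2. After stimulation they were 337, 349 and 335 CPM in WT, 844, 814 and 817 in clone 1 and 1309.7, 1306 and 1295 in clone 2. The uninduced clones overlapped each other below WT, and after stimulation all groups separated with clone 2 highest and WT lowest. The response was 3.54-fold in WT, 18.5-fold in clone 1 and 27.0-fold in clone 2, or 1.82 ± 0.06, 4.21 ± 0.07 and 4.75 ± 0.07 on the log2 scale. It exceeded the WT response by 2.39 ± 0.09 in clone 1 (adjusted p = 7.00e-19) and 2.93 ± 0.09 in clone 2 (adjusted p = 1.01e-20). Against uninduced WT, clone 1 was at -1.11 (a DEG) and clone 2 at -0.99 (not a DEG). The clone 2 value was just past the fold threshold, and so a DEG, with DESeq2, with DESeq2 size factors and with a filter of 1 CPM, and also without replicate 1 of uninduced WT (-1.07) or replicate 1 of uninduced clone 2 (-1.04). Well expressed genes of chromosome 10, which carries *Sgk1*, had a median log2 difference from WT of -0.41 in uninduced and -0.43 in stimulated clone 1, against 0.07 and 0.05 in clone 2. The part of this shift in the *Sgk1* values was not tested.

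*Errfi1* (ENSMUSG00000028967, chr4:150853919-150868892, plus strand) encodes MIG6, a feedback inhibitor of EGF receptor signaling. Uninduced levels (51.0, 58.6 and 54.6 CPM in WT, 46.2, 43.0 and 45.0 in clone 1, 40.6, 41.2 and 40.6 in clone 2) spanned a narrow range. Stimulated levels were 85.3, 93.1 and 92.2 CPM in WT, 199.6, 211 and 196 in clone 1 and 333, 380.2 and 370.4 in clone 2. None of the 6 groups overlapped, with stimulated clone 2 highest and uninduced clone 2 lowest. The WT response of 0.72 ± 0.06 passed the p threshold (adjusted p = 8.09e-12) and not the fold threshold. In the clones it was 2.17 ± 0.06 and 3.15 ± 0.06, larger than in WT by 1.45 ± 0.08 in clone 1 (adjusted p = 1.08e-14) and 2.42 ± 0.08 in clone 2 (adjusted p = 1.08e-19).

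*Dusp1* (ENSMUSG00000024190, chr17:26505590-26508519, minus strand) encodes MKP-1, a phosphatase that turns off p38, JNK and ERK and that glucocorticoids raise within hours in many cells. After 48 h of DMII it was a DEG in no genotype. WT libraries had 82.4, 71.7 and 83.5 CPM uninduced and 45.6, 54.2 and 49.9 stimulated. Clone 1 had 116, 122 and 129 CPM uninduced and 149, 141 and 143 stimulated, and clone 2 had 58.5, 50.5 and 52.3 and 56.6, 53.5 and 54.7. Clone 1 held the 2 highest groups, and stimulated clone 2, uninduced clone 2 and stimulated WT overlapped in turn at the bottom. The log2 response was -0.67 ± 0.07 in WT (adjusted p = 1.35e-09), 0.24 ± 0.07 in clone 1 (adjusted p = 0.00312) and 0.03 ± 0.07 in clone 2 (adjusted p = 0.788), where the 95% interval was -0.12 to 0.17. The clones differed from WT in response by 0.90 and 0.69, both past the p threshold and short of the fold threshold. Stimulated clone 1 was 2.89-fold above stimulated WT, a DEG, and stimulated clone 2 was not called different from it (log2 interval -0.01 to 0.28).

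The metallothioneins *Mt1* (ENSMUSG00000031765, chr8:94179082-94180327, plus strand) and *Mt2* (ENSMUSG00000031762, chr8:94172664-94173568, plus strand) encode small cysteine-rich proteins that bind zinc and copper and respond to metals as well as to glucocorticoids. They are close paralogs, so reads could be shared between them. *Mt1* had 148, 154 and 143 CPM in uninduced WT, 185, 191 and 167 in uninduced clone 1 and 261, 281 and 263 in uninduced clone 2. Stimulated libraries had 316, 337 and 281 CPM in WT, 1046, 986 and 874 in clone 1 and 1366, 1373 and 1396 in clone 2. No groups overlapped, although uninduced clone 2 and stimulated WT nearly touched, and clone 2 lay above clone 1 and clone 1 above WT in each treatment. The log2 response was 1.07 ± 0.06 in WT, 2.42 ± 0.07 in clone 1 and 2.36 ± 0.06 in clone 2. It was larger than in WT by 1.35 ± 0.09 in clone 1 (adjusted p = 4.03e-12) and 1.29 ± 0.09 in clone 2 (adjusted p = 1.14e-11).

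*Mt2* had 12.5, 10.3 and 9.99 CPM in uninduced WT, 12.2, 13.1 and 9.32 in uninduced clone 1 and 29.9, 25.2 and 21.6 in uninduced clone 2. After stimulation it had 84.6, 84.0 and 69.8 CPM in WT, 101, 114 and 123 in clone 1 and 262, 255 and 283 in clone 2. Every genotype rose, and the uninduced WT and clone 1 groups overlapped. The log2 response was 2.87 ± 0.14 in WT, 3.28 ± 0.13 in clone 1 and 3.36 ± 0.12 in clone 2. Its response was not called larger in the clones. The difference from WT was 0.41 in clone 1 (95% interval -0.00 to 0.83, adjusted p = 0.124) and 0.49 in clone 2 (95% interval 0.10 to 0.87, adjusted p = 0.0516), and whether *Mt1* and *Mt2* differed from each other in this was not tested. Of the exonic bases of *Mt2*, 73.5% lie under *Gm45774* on the opposite strand. That gene held 1 to 41 counts per group beside 663 to 13279 for *Mt2*, and without a known strand setting their reads cannot be told apart.

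*Hsd11b1* (ENSMUSG00000016194, chr1:193221634-193264075, minus strand), the enzyme that regenerates active glucocorticoid, marked the genotype more than the treatment. WT libraries had 11.2, 9.96 and 12.8 CPM uninduced and 13.3, 15.6 and 12.9 stimulated. Clone 1 had 169, 182 and 179 CPM uninduced and 120.5, 123 and 115 stimulated, and clone 2 had 153, 154 and 149 uninduced and 113, 104 and 104 stimulated. No groups overlapped, and the lowest KO library was well above the highest WT one. Uninduced clones were above WT by 3.95 ± 0.08 (adjusted p = 1.17e-26) and 3.73 ± 0.08 (adjusted p = 4.48e-26) on the log2 scale, and stimulated ones by 3.10 ± 0.07 and 2.94 ± 0.07. The log2 response was 0.29 in WT, -0.57 in clone 1 and -0.51 in clone 2. The difference from WT was -0.86 ± 0.11 in clone 1 (adjusted p = 1.45e-07) and -0.80 ± 0.11 in clone 2 (adjusted p = 6.21e-07), below the fold threshold.

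*Cdo1* (ENSMUSG00000033022, chr18:46713205-46728342, minus strand) encodes cysteine dioxygenase, which oxidizes cysteine on the way to taurine. Its WT libraries had 70.7, 63.7 and 69.2 CPM uninduced and 35.0, 32.4 and 33.5 stimulated. Clone 1 had 13.3, 11.5 and 13.0 CPM uninduced and 63.0, 60.2 and 48.7 stimulated, and clone 2 had 4.91, 4.03 and 4.52 uninduced and 32.9, 35.9 and 31.9 stimulated. Uninduced WT was the highest group and the uninduced clones the lowest, and stimulated WT and stimulated clone 2 overlapped. In WT cells *Cdo1* fell by 1.01 (log2, SE 0.09, adjusted p = 2.43e-11), just past the fold threshold. The fall was -0.98, -0.99, -0.97 or -0.99 without replicate 1 or 3 of uninduced WT or replicate 2 or 3 of stimulated WT, and so no longer a DEG, and -0.97 without the filter. In the clones it rose by 2.18 ± 0.10 and 2.88 ± 0.11, and the difference from the WT response was 3.20 ± 0.13 in clone 1 (adjusted p = 3.29e-18) and 3.90 ± 0.14 in clone 2 (adjusted p = 2.30e-19). These differences started from uninduced levels 5.38-fold and 14.9-fold below WT. In stimulated cells clone 1 was at 0.77 against WT, and clone 2 was not called different (log2 interval -0.19 to 0.18).

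**Figure D3:**
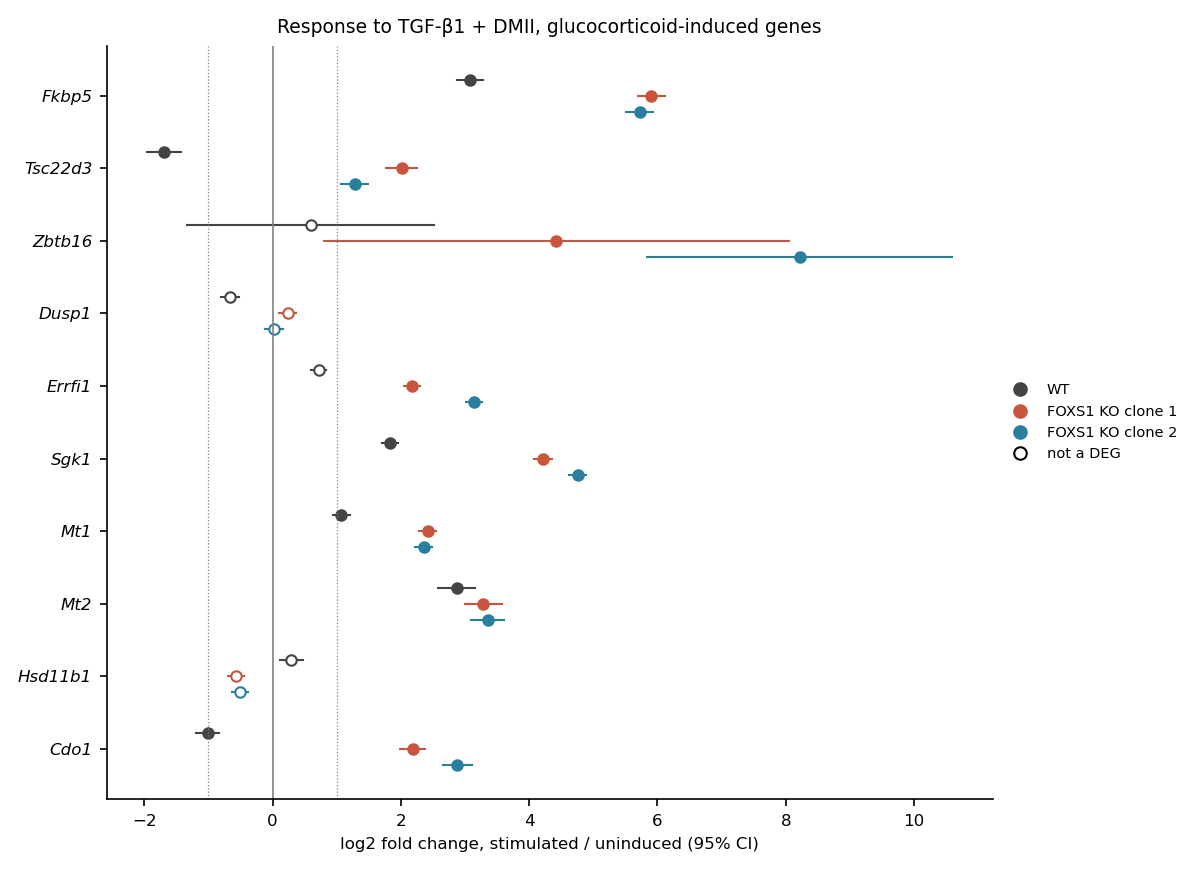
Log2 fold change of stimulated over uninduced libraries for each gene in WT cells, clone 1 and clone 2, with 95% confidence intervals (n = 3 libraries per group), filled where the gene was a DEG. Dotted lines mark the fold threshold; the clones lie to the right of WT for every gene but *Hsd11b1*, and the widest intervals are those of *Zbtb16*, which had 0 counts in both uninduced clones.

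Over the 10 genes, 4 were called higher and 2 lower after stimulation in WT cells, where 6.25% of all tested genes were called higher and 13.6% lower. In clone 1, 8 were higher and 0 lower, against 5.95% and 10.7% of tested genes. In clone 2, 8 were higher and 0 lower, against 6.46% and 11.2%. *Zbtb16*, which passed the filter through stimulated clone 2, is 1 of the 8 in each clone and adds nothing to the clone 2 count. The same 8 genes were called in both clones: *Fkbp5*, *Tsc22d3*, *Zbtb16*, *Sgk1*, *Mt1*, *Mt2*, *Errfi1* and *Cdo1*. The median log2 response of the 10 was 0.66 in WT, 2.30 in clone 1 and 3.01 in clone 2, beside medians of -0.04, -0.02 and -0.02 over all tested genes. Without *Zbtb16* the medians were 0.72, 2.18 and 2.88, and with it at its bound 2.18 in clone 1 and 3.01 in clone 2.

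The difference in response, the comparison of the clones' readout with that of WT cells, was called higher for the same 6 genes in each clone (*Fkbp5*, *Tsc22d3*, *Sgk1*, *Mt1*, *Errfi1* and *Cdo1*). *Zbtb16* was also past the threshold in clone 2, where its high stimulated level had admitted it to the test, and it is not counted. No gene was called lower. Among all tested genes 5.34% were called higher and 3.46% lower in clone 1, and 4.89% and 2.96% in clone 2. The median without *Zbtb16* was 1.45 in clone 1 and 2.42 in clone 2 on the log2 scale. Over all 10 genes it was 1.92, or 1.40 with *Zbtb16* at its bound, in clone 1 and 2.53 in clone 2, beside -0.01 over all tested genes in each clone. The WT libraries entered both of these comparisons. Of the other 3 genes, *Mt2* had positive and *Hsd11b1* negative differences, and *Dusp1* had positive differences below the fold threshold.

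In stimulated cells, 7 genes were called higher in clone 1 than in WT and 0 lower, where 9.42% of tested genes were higher and 9.60% lower. In clone 2, 8 were higher and 0 lower, where the shares were 7.95% and 8.94%. *Zbtb16*, which passed the filter only through stimulated clone 2, is 1 of these 8 and adds nothing to the count. *Fkbp5*, *Tsc22d3*, *Sgk1*, *Mt1*, *Hsd11b1* and *Errfi1* were higher in both clones. Before stimulation the picture was mixed. In clone 1, *Hsd11b1* was higher and *Zbtb16*, *Sgk1* and *Cdo1* were lower, where 6.32% of tested genes were higher and 8.73% lower. In clone 2, *Tsc22d3*, *Mt2* and *Hsd11b1* were higher and *Zbtb16* and *Cdo1* lower, where the shares were 5.54% and 9.56%. The uninduced median of the 10 genes was -0.30 in clone 1 and -0.49 in clone 2. Of the 6 genes with larger responses in both clones, *Cdo1*, *Sgk1*, *Fkbp5* and *Errfi1* had lower uninduced means in both clones than in WT, *Mt1* had higher ones, and *Tsc22d3* was lower in clone 1 and higher in clone 2.

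The clones also differed from each other after stimulation. *Dusp1* was called higher in clone 1, by 1.39 ± 0.07 on the log2 scale (adjusted p = 2.86e-16). *Tsc22d3*, *Zbtb16* and *Mt2* were called lower in it, where 5.50% of tested genes were higher and 4.48% lower in clone 1 than in clone 2. The call of *Zbtb16*, which passed the filter only through stimulated clone 2, is a description and adds nothing to the count. *Tsc22d3* differed by -1.38 ± 0.10 (adjusted p = 2.06e-12) and *Mt2* by -1.24 ± 0.11 (adjusted p = 3.98e-08). The other 6 genes passed the p threshold and stayed below the fold threshold, *Fkbp5* being higher in clone 1 (0.81) and *Sgk1*, *Mt1* and *Errfi1* higher in clone 2 (-0.66, -0.51 and -0.84).

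Levels between genes were compared per kilobase of the deposited gene length (CPM per kb). *Mt1* led in every group, at 119 in uninduced WT, 777 in stimulated clone 1 and 1106 in stimulated clone 2. In all stimulated groups *Mt2*, *Sgk1* and *Errfi1* followed in that order. *Fkbp5*, whose transcript is long, reached 8.81 in stimulated WT, 50.5 in clone 1 and 28.8 in clone 2. *Zbtb16* was lowest in each group, at most 0.326.

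The receptor side of the pathway was described with 14 listed genes for receptors, chaperones, coregulators and glucocorticoid enzymes, all tested. *Nr3c1*, the glucocorticoid receptor, fell in WT cells. Its levels were 130.2, 119 and 121 CPM uninduced and 42.0, 40.5 and 40.1 stimulated, a fall of 1.59 on the log2 scale (SE 0.06, adjusted p = 1.56e-19). In clone 1 it went from 175 ± 3.67 to 130.0 ± 7.19 CPM and in clone 2 from 159 ± 8.01 to 122 ± 10.00 CPM, log2 responses of -0.43 and -0.39 that were no DEGs. The stimulated clones held 3.18-fold and 2.98-fold the receptor transcript of stimulated WT cells (adjusted p = 4.47e-20 and 2.59e-19), and the difference in response was 1.16 ± 0.08 and 1.21 ± 0.08. Its part in the responses of the 10 genes was not tested.

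*Hsd11b2*, which inactivates glucocorticoid, was opposite to *Hsd11b1* between genotypes. It had 11.3 ± 2.11 CPM in uninduced and 34.5 ± 3.59 in stimulated WT, against 2.50 ± 0.605 in stimulated clone 1 and 1.33 ± 0.352 in stimulated clone 2. It was lower than in WT by a log2 difference of -3.79 ± 0.22 (adjusted p = 1.63e-14) and -4.68 ± 0.24 (adjusted p = 3.03e-15) after stimulation, and by -3.60 and -4.21 before it. *Nr3c2*, the mineralocorticoid receptor, which also binds glucocorticoids, fell in every genotype, from 11.2 ± 3.27 to 1.36 ± 0.324 CPM in WT, from 2.27 ± 0.359 to 0.306 ± 0.330 in clone 1 and from 4.73 ± 0.238 to 0.312 ± 0.187 in clone 2, and its stimulated libraries of clones 1 and 2 held only 20 and 16 counts in all. Across the 14 genes the response was called higher for 1 and lower for 2 in WT, against 6.25% and 13.6% of all tested genes, and higher for 1 and lower for 1 in each clone, against 5.95% and 10.7% in clone 1 and 6.46% and 11.2% in clone 2. After stimulation 2 genes were higher and 3 lower than WT in clone 1 (9.42% and 9.60% of tested genes), and 2 higher and 2 lower in clone 2 (7.95% and 8.94%).

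**Figure D4:**
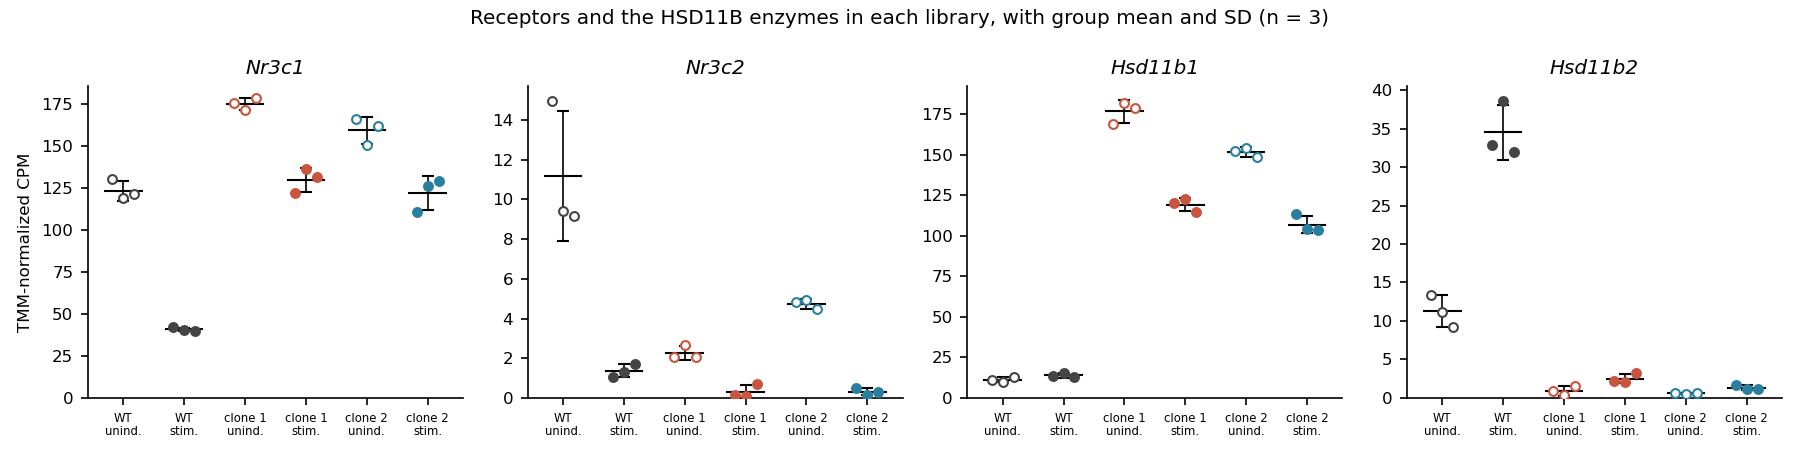
Levels of *Nr3c1*, *Nr3c2*, *Hsd11b1* and *Hsd11b2* in each library (TMM-normalized CPM, linear axes from 0), open circles uninduced and filled circles stimulated, with group mean and SD (n = 3). *Nr3c1* drops to 40.9 CPM in stimulated WT cells and averages 130.0 and 122 CPM in stimulated clones 1 and 2, and *Hsd11b1* and *Hsd11b2* are high in opposite genotypes.

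Of 16 other known glucocorticoid-induced genes, 15 were tested. After stimulation 5 were called higher and 3 lower in WT (6.25% and 13.6% of all tested genes), 8 and 1 in clone 1 (5.95% and 10.7%), and 9 and 1 in clone 2 (6.46% and 11.2%). Compared with WT, the response was called higher for 8 and lower for 1 in clone 1 (5.34% and 3.46% of tested genes), and higher for 9 and lower for 1 in clone 2 (4.89% and 2.96%), with medians of 1.08 and 1.11 on the log2 scale. *Pdk4*, a kinase that limits glucose oxidation, rose in all genotypes, from 137 ± 6.08 to 928 ± 14.3 CPM in WT, from 4.21 ± 0.232 to 163 ± 9.52 in clone 1 and from 12.4 ± 1.73 to 497 ± 27.9 in clone 2. Its response was larger in the clones by 2.51 ± 0.11 and 2.56 ± 0.09, yet its stimulated level stayed below that of WT. *Glul*, glutamine synthetase, fell in WT from 122 ± 3.63 to 44.4 ± 2.33 CPM and rose to 317 ± 7.75 in clone 1 and 253 ± 14.1 in clone 2, as *Tsc22d3* did. Relative to WT its response was larger by 3.12 ± 0.08 (adjusted p = 8.90e-23) and 2.46 ± 0.08 (adjusted p = 2.89e-20). *Fam107a*, an actin-associated stress gene, fell from 126 ± 13.0 to 9.56 ± 2.54 CPM in WT, went from 90.9 ± 3.79 to 102 ± 3.87 in clone 1 and fell from 175 ± 3.30 to 69.7 ± 3.29 in clone 2. *Klf15*, a metabolic transcription factor, fell in WT from 3.71 ± 0.609 to 0.293 ± 0.0897 CPM and had 0.835 and 0.724 CPM in clone 1 and 0.384 and 0.247 CPM in clone 2. *Orm1*, an acute phase protein, went the other way. Its WT counts were 1 uninduced and 28 stimulated, a ratio of 26.6 (95% exact binomial interval 4.40 to 1088). These counts did not meet the filter, so *Orm1* entered the test through KO libraries, where it was high. It is the 1 gene called lower in each clone, so that call is a description and no p is given. The difference in response was -3.35 in clone 1 and -2.52 in clone 2, from uninduced clone levels of 5.17 ± 0.228 and 2.15 ± 0.531 CPM.

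**Figure D5:**
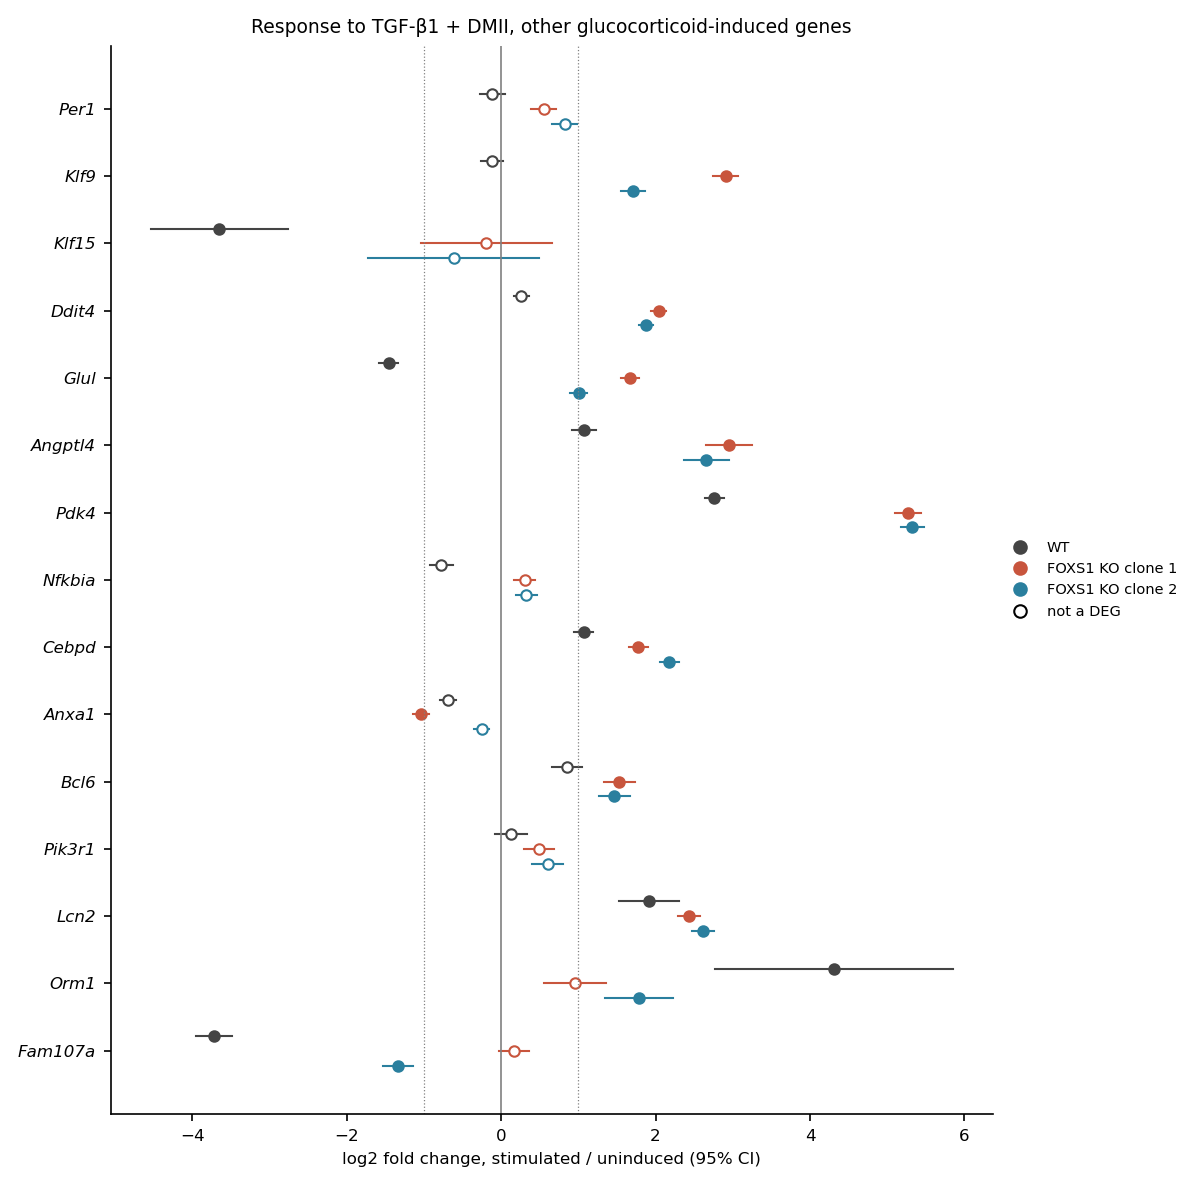
Log2 fold change of stimulated over uninduced libraries for the 15 other tested glucocorticoid-induced genes in WT cells, clone 1 and clone 2, with 95% confidence intervals, filled where the gene was a DEG. WT cells had 5 DEGs above and 3 below 0, clone 1 had 8 and 1, and clone 2 had 9 and 1.

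Of 14 inflammatory genes that glucocorticoids are known to repress, 10 were tested. After stimulation 3 were called higher and 3 lower in WT (6.25% and 13.6% of all tested genes), 3 and 4 in clone 1 (5.95% and 10.7%), and 5 and 1 in clone 2 (6.46% and 11.2%). The clones went apart in the difference in response. It was called higher for 1 and lower for 3 in clone 1 (5.34% and 3.46% of tested genes). In clone 2 it was called higher for 5 and lower for 0 (4.89% and 2.96%). The medians were -0.78 and 1.25 on the log2 scale. In stimulated cells 7 were higher than WT in each clone and 0 lower, where 9.42% of tested genes were higher and 9.60% lower in clone 1, and 7.95% and 8.94% in clone 2. In uninduced cells 6 were higher and 0 lower in clone 1 (6.32% and 8.73%), and 4 higher and 0 lower in clone 2 (5.54% and 9.56%). *Nos2* is 1 of the genes called higher than WT in each of these comparisons. It entered the test through KO libraries alone and adds nothing to the counts. *Mmp3* entered through clone 1 alone. Any call of it in a comparison that includes clone 1, higher or lower, is therefore a description and adds nothing to the counts. *Il6*, an inflammatory cytokine, rose from 1.68 ± 0.155 to 11.0 ± 1.46 CPM in WT, and reached 25.4 ± 1.91 CPM in clone 1 and 38.2 ± 2.15 CPM in clone 2. Relative to WT, its response was larger in clone 1 by 1.00 ± 0.28 (adjusted p = 0.00598) and in clone 2 by 2.34 ± 0.29 (adjusted p = 1.26e-07). *Ptgs2*, the inducible cyclooxygenase that indomethacin inhibits, rose from 19.7 ± 4.22 to 153 ± 11.4 CPM in WT, from 31.6 ± 1.74 to 85.4 ± 3.49 in clone 1 and from 27.8 ± 1.15 to 314 ± 14.0 in clone 2. Its response was smaller than in WT in clone 1, with a log2 difference of -1.50 ± 0.13 (adjusted p = 2.27e-09), and was no DEG in the difference for clone 2 (0.57). *Nos2* had no count in WT libraries and so entered the test through KO libraries alone. It had 45 counts in uninduced and 20 in stimulated clone 1, and 32 in uninduced and 209 in stimulated clone 2, the last at least 92.1-fold above stimulated WT. *Icam1*, an adhesion molecule, went from 47 counts to 1 in WT, a ratio of 0.0202 (95% exact binomial interval 0.000501 to 0.118), and *Mmp3*, a matrix protease, from 1 to 37, a ratio of 35.1 (5.93 to 1425). In clone 1 *Icam1* went from 21 counts to 6 and *Mmp3* from 62 to 221. In clone 2 *Icam1* went from 46 counts to 0 and *Mmp3* from 2 to 11, a ratio of 9.35 (2.04 to 86.9).

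Because DMII also raises cAMP, 9 cAMP-induced genes were described beside the glucocorticoid targets. After stimulation 2 were called higher and 4 lower in WT (6.25% and 13.6% of all tested genes), and 5 higher and 2 lower in each clone (5.95% and 10.7% in clone 1, 6.46% and 11.2% in clone 2). The difference in response was called higher for 5 and lower for 0 in clone 1 (5.34% and 3.46%), and higher for 6 and lower for 0 in clone 2 (4.89% and 2.96%). *Pde4b*, a phosphodiesterase, went from 13.5 ± 0.345 to 25.8 ± 0.847 CPM in WT, from 2.40 ± 0.248 to 56.3 ± 3.24 in clone 1 and from 3.01 ± 0.251 to 74.4 ± 0.281 in clone 2, with a difference in response of 3.62 ± 0.14 and 3.67 ± 0.13. The nuclear receptors *Nr4a1* and *Nr4a3* differed by 1.83 and 2.39, and by 2.63 and 2.49. *Nr4a1* fell from 116 to 43.5 CPM in WT and went from 135 to 180 in clone 1 and from 103 to 202 in clone 2. *Nr4a3* reached 13.9, 14.5 and 11.5 CPM in stimulated WT, clone 1 and clone 2, from 2.70, 0.451 and 0.362 uninduced. *Sik1*, a kinase, differed by 2.64 and 1.69. It fell from 76.2 to 30.2 CPM in WT and went from 52.8 to 131 in clone 1 and from 45.9 to 58.8 in clone 2. *Pde4d* rose in all 3 genotypes (1.87, 2.68 and 2.35 on the log2 scale), and *Fosb* fell in all 3, by log2 changes of -2.07 in WT and -2.08 in clone 1 and from 29.2 ± 6.82 to 14.8 ± 1.69 CPM in clone 2. *Ppargc1a*, a coactivator of mitochondrial genes, went from 423 counts to 28 in clone 1, from 524 to 3 in clone 2 and from 17 to 0 in WT. It passed the filter through the uninduced clones, where it was high. Its call as lower in the response of each clone is therefore a description and adds nothing to those counts. A larger response in the clones was also measured for several cAMP-induced genes. Of 4 zinc-responsive genes set beside the metallothioneins, 3 were tested and 0 were DEGs in any response by edgeR, although the adjusted p was below 0.05 for all 3 in WT and clone 1 and for *Mtf1* in clone 2. The zinc exporter *Slc30a1* had log2 responses of -0.35, 0.38 and -0.05 in WT, clone 1 and clone 2, *Mtf1*, the metal factor, 0.25, 0.27 and 0.35, and *Slc39a10*, a zinc importer, -0.23, -0.79 and -0.14.

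Across the 18 libraries, log2 levels of *Fkbp5* and *Sgk1* had a Pearson r of 0.971, *Sgk1* and *Errfi1* 0.971, *Mt1* and *Mt2* 0.936 and *Fkbp5* and *Errfi1* 0.933. *Tsc22d3* had 0.347 with *Fkbp5*, *Dusp1* 0.120 and *Hsd11b1* 0.044. The libraries form 6 groups, so these values describe mainly the group means. Among the 10050 other genes averaging 5 CPM or more, those most like *Fkbp5* were *Fgfrl1* (r = 0.995), *Slc43a3* (0.991) and *Slc25a25* (0.989). *Fgfrl1* went from 254 to 463 CPM in WT, from 272 to 727 in clone 1 and from 232 to 618 in clone 2. Those most like *Tsc22d3* were *Pnpla8* (0.955), *Rcan1* (0.949) and *Ccdc71l* (0.947).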

How the data were processed

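Counts per gene from bulk poly(A) RNA sequencing of 18 libraries (6 groups of 3) were used. The authors mapped reads with HISAT2 to GRCm38 (mm10 in the labels) and deposited raw counts without normalization. Not given in the sources used here were the counting program, annotation release and strand setting. All per-sample count columns were mapped to libraries by title. The 3 libraries of a group were not identical in any of 18 pairs and differed by more than counting noise.

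The main test was edgeR's quasi-likelihood test (edgeR 4.0.16, run under R 4.3.3 with limma 3.58.1). DESeq2 1.42.0 served as an alternative. Genes were filtered with filterByExpr (minimum count 10), which left 14317 of 54532, scaled with TMM, fitted with 1 mean per group (glmQLFit, robust) and tested with glmQLFTest. The difference in response is the interaction contrast. Calls needed a Benjamini-Hochberg adjusted p below 0.05 over all tested genes and a log2 fold change above 1 in size. The procedure was tested on simulated data. Library totals ran from 15576685 to 42005596 counts, and 3 counts over a group, the floor, equal 0.0354 to 0.0603 CPM in the groups where it was used. Alternatives were DESeq2, DESeq2 size factors, other filters, other thresholds, a replicate block, a fit restricted to the compared groups, and each library left out in turn.

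The 10 genes and the gene lists were chosen with earlier results of these data known. By rule, the text names all 10, *Nr3c1* and the 3 receptor-side genes that differ most between stimulated clones and WT, and, of each other list, the 4 tested genes (2 for zinc) with the largest WT response and with the largest difference in response, as well as the 3 genes most correlated with *Fkbp5* and with *Tsc22d3* (log2 CPM, prior count 2). *Foxs1* was named as the targeted gene, and *Thy1*, *Vim*, *Pdgfra*, the collagen genes, *Plin1*, *Adipoq*, *Lep* and *Gm45774* after their values were seen. Promoters came from RefSeq (GRCm38.p6). A search 10 kb around gene starts was not run, since no genome sequence was used here. Figures were drawn with Python 3.11.15 and matplotlib 3.10.9.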

Additional observations from a re-analysis of the deposited data

Results flagged for a closer look

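How far each FOXS1 KO clone differed from WT cells in its response to TGF-β1 + DMII, tested directly as an interaction in edgeR's quasi-likelihood model, was called for the same 6 of the 10 genes in each clone, each time larger in the clone (n = 3 libraries per group), where 5.34% of all tested genes were called larger in clone 1 and 4.89% in clone 2. In clone 1 the log2 differences were 2.82 for *Fkbp5*, 3.70 for *Tsc22d3*, 2.39 for *Sgk1*, 1.35 for *Mt1*, 1.45 for *Errfi1* and 3.20 for *Cdo1*. In clone 2 they were 2.64 for *Fkbp5*, 2.97 for *Tsc22d3*, 2.93 for *Sgk1*, 1.29 for *Mt1*, 2.42 for *Errfi1* and 3.90 for *Cdo1*. The fitted value for *Zbtb16* in clone 2 was 7.62. It rests on 0 counts in uninduced clone 2, is no bound, and is not counted, since the gene passed the filter only through stimulated clone 2. For *Tsc22d3* and *Cdo1* the WT libraries fell while those of both clones rose. The 10 genes were chosen with earlier results of these data known, so the shares beside them are a description. Groups of 3 libraries were too small to be examined for single libraries that stand apart.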

How the results depend on the processing

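Of 1304 recomputed values, 1268 kept their direction and their side of the threshold, 20 lost a call, 8 gained one and 8 changed sign. Without a fold threshold 9 of the 10 genes were called in uninduced clone 1 against WT, 10 in uninduced clone 2 against WT and 10 between the stimulated clones. None of the values that changed sign was called. *Dusp1* in the clone 2 response was -0.0014 with no filter, and -0.021 to 0.096 with a library of uninduced clone 2 left out. *Cdo1* in stimulated clone 2 against WT was 0.0029 with a filter of 1 CPM, 0.026 without replicate 1 of stimulated WT, and -0.053 to 0.035 with a library of stimulated clone 2 left out. *Zbtb16* in stimulated clone 1 against WT, on 8 against 11 counts, was -0.49 and ran from -0.78 to 0.10 with a library of stimulated WT left out. *Mt2* in uninduced clone 1 against WT ran from -0.0081 to 0.22 with a library of that clone left out. With each library left out, 6 genes were called in the clone 1 and 7, *Zbtb16* included, in the clone 2 difference in response. No pairing by replicate number was seen (45 same-number pairs, r from -0.041 to 0.050). Of 90 comparisons of a library with another group, 32 had their highest r with its own number. These values cannot tell whether libraries of the same number were handled together. The replicate block left 3 in place of 4 genes called in uninduced clone 1 against WT (*Zbtb16*, adjusted p = 0.0592) and changed no other call of these genes. DESeq2 size factors moved the median of all genes by at most 0.0147. Low counts limit *Zbtb16*.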
